A study of Rattus norvegicus with 18 samples.

Results

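The macrophage growth factors and receptors examined here are 9 genes of rat lung: the ligands *Csf1*, *Il34*, *Csf2*, and *Csf3*, the receptor genes *Csf1r*, *Csf2ra*, and *Csf2rb*, and the transcription factors *Spi1* and *Pparg*. They were chosen by name, with earlier results of these data known, as the rows of the deposited gene tables that carry these symbols. All 9 were found among the 22081 genes listed. The lungs of 18 male F344 rats were profiled by RNA-seq, with 3 vehicle controls and 3 MWCNT rats killed after each of 0.5, 1, and 2 years of dosing (Year 0.5, 1, and 2). The MWCNT was MWNT-7, a multi-walled carbon nanotube, instilled into the trachea at 0.5 mg/kg every 4 weeks from 9 weeks of age, and the controls received the vehicle on the same schedule. RNA was taken from the accessory lobe, in tissue without tumors, each rat being a separate animal. The libraries held 13297643 to 17868851 counted reads in controls and 14661589 to 21130757 in treated rats. The 3 rats of a group set the precision of each value, and levels are given in TPM, a unit scaled for gene length and library total.

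Macrophages depend on a small set of secreted growth factors. CSF-1 and IL-34 are separate ligands of one receptor tyrosine kinase, CSF-1R, which keeps macrophages alive in most tissues. GM-CSF, the product of *Csf2*, binds a receptor made of a ligand-binding alpha chain (*Csf2ra*) and a signal-transducing beta chain (*Csf2rb*), and in the lung this pathway is known for the maturation of alveolar macrophages and for their clearance of surfactant. PPARγ, encoded by *Pparg*, acts downstream of GM-CSF in alveolar macrophages, and PU.1, encoded by *Spi1*, is the ETS-family factor that myeloid cells need and that binds the regulatory DNA of many myeloid genes, *Csf1r* and *Csf2ra* among them. G-CSF, encoded by *Csf3*, drives neutrophil production.

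Of these genes, the GM-CSF receptor chains had the largest fold changes, and *Csf2* was the tested ligand whose values did not lean one way at every time point, so the promoters of *Csf2ra* and *Csf2* are shown. The RefSeq promoter table (build GRCr8) held 4 of the 9 genes, *Csf2*, *Csf1r*, *Csf2ra*, and *Pparg*, the last with 2 start sites. The genes *Csf1*, *Csf2rb*, *Csf3*, *Il34*, and *Spi1* were not in it. The 250 bases before the start site are printed 5′ to 3′ on the strand of the gene, and capitals mark the PU box GAGGAA, the core of the sequence that PU.1 binds, read on either strand.
*Csf2ra* (GRCr8 chr14:118118-118367, minus strand): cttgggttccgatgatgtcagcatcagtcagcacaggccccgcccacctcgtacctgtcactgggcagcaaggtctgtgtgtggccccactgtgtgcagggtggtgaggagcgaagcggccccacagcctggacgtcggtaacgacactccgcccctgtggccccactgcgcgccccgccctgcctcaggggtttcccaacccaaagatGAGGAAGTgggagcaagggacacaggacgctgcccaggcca
*Csf2* (GRCr8 chr10:38889674-38889923, minus strand): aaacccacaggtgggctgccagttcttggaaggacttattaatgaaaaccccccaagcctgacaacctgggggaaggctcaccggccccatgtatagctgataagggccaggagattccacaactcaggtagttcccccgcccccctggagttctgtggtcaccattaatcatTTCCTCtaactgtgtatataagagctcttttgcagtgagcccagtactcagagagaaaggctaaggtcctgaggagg
In *Csf2ra* the capitals extend over GAGGAAGT, a longer form that contains the PU box, at 41 to 34 bases before the start site on the strand of the gene. In *Csf2* the PU box was on the opposite strand, at 77 to 72 bases before the start, where it reads as its reverse complement. Searched on both strands, GAGGAA occurred in 23.3% of all 33469 promoter windows of this length and GAGGAAGT in 2.04% of them. *Csf1r* held 2 copies of GAGGAA and the first start site of *Pparg* held 1, while the second start site of *Pparg* held none, and GAGGAAGT was found in no other of these windows. A match describes the letters only, and the deposited tables hold no measurement of binding.

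MWCNT treatment was accompanied by higher RNA of both GM-CSF receptor chains, *Spi1*, *Csf1*, and *Csf1r* at all 3 time points, and by higher *Pparg* at Years 0.5 and 2. The GM-CSF receptor chains rose about 3-fold or more and *Spi1* more than 2-fold, whereas *Csf1r* rose by only 1.26-fold at Years 0.5 and 1 and 1.46-fold at Year 2. *Il34* did not pass the test at any time point, *Csf2* did not pass at any time point and differed in direction between Years 1 and 2, and *Csf3* was close to 0 reads in every rat. Each time point was tested by edgeR's quasi-likelihood method, and changes were called at a Benjamini-Hochberg FDR below 0.05 over all genes tested. Among the 8 genes with enough reads to be tested, 6 rose at Year 0.5, 5 at Year 1, and 6 at Year 2, and none fell. Of all tested genes, 20.2%, 21.6%, and 25.2% rose and 18.6%, 19.6%, and 24.0% fell. With the added requirement of an absolute log2 fold change above 1, 3, 3, and 5 of the 8 were DEGs, all of them higher, against 6.07%, 6.13%, and 8.17% of all tested genes. The median log2 fold change of the 8 genes was 0.81 at Year 0.5, 0.88 at Year 1, and 1.10 at Year 2, compared with -0.02, 0.00, and -0.01 for all genes tested. Because the genes were chosen with earlier results of these data known, these comparisons describe the set and are not a test of it. In TPM, the 3 treated rats lay above all 3 controls for 5, 6, and 6 of the 9 genes and below all 3 for 0, 1, and 2. Groups that did not overlap, in either direction, made up 57.7%, 61.7%, and 63.8% of all tested genes, so separation of the groups was common.

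**Figure D1:**
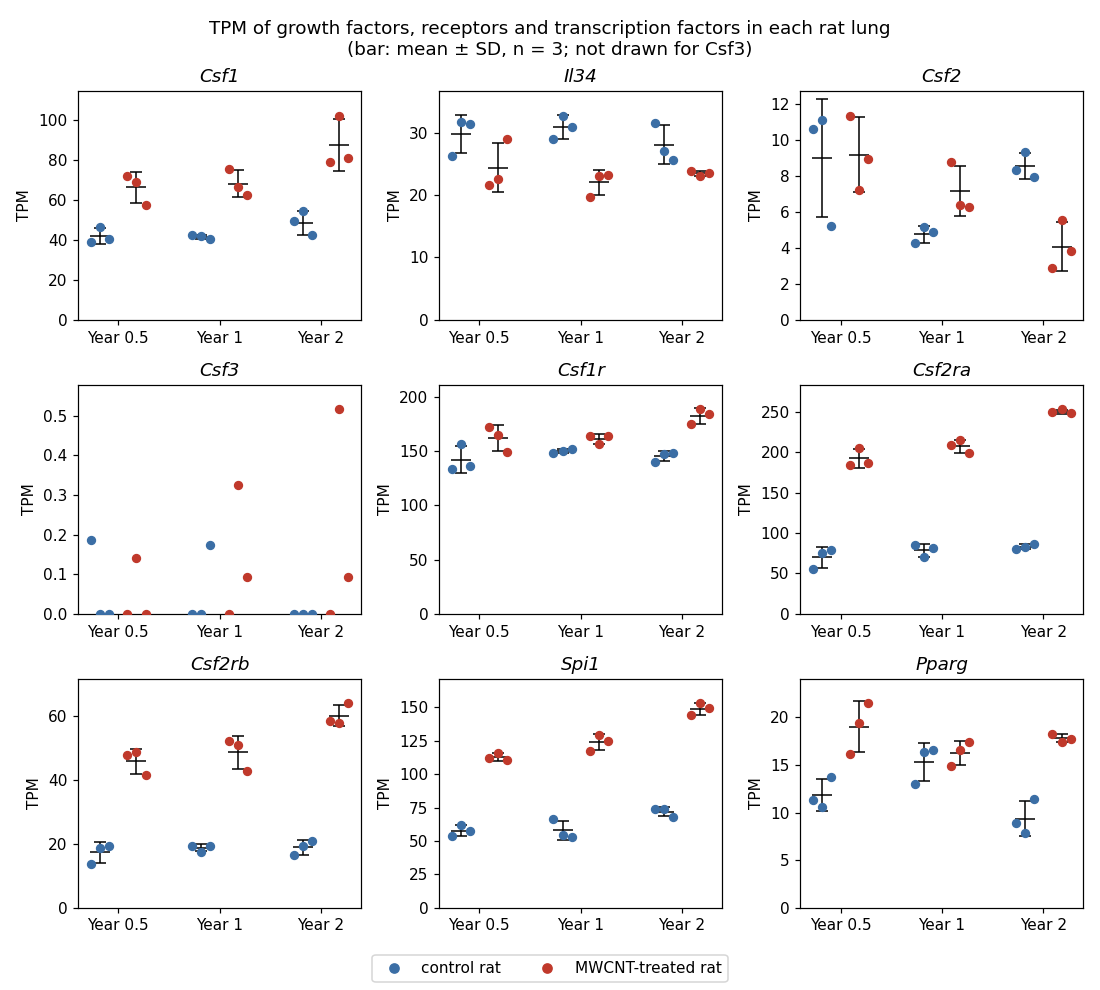
TPM of the 9 genes in each rat, in 1 panel per gene with its own axis from 0, by time point (Years 0.5, 1, and 2) for control and MWCNT-treated rats; points are rats and bars are the mean ± SD (n = 3), not drawn for *Csf3*. *Csf2ra*, *Csf2rb*, *Spi1*, and *Csf1* of the treated rats lay above the controls at every time point, while *Csf2* overlapped at Year 0.5, was above at Year 1, and was below at Year 2.

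*Csf1* (Rnor_6.0 chr2:210522375-210550560, minus strand), the gene for the main CSF-1R ligand, was the most abundant of the 4 ligand RNAs per length in every group. Its level in the control rats was 39.2, 46.3, and 40.2 TPM at Year 0.5, 42.3, 42.1, and 40.3 TPM at Year 1, and 49.4, 54.2, and 42.3 TPM at Year 2. In the treated rats it was 72.1, 69.1, and 57.3 TPM at Year 0.5, 75.5, 66.3, and 62.5 TPM at Year 1, and 78.7, 102.1, and 80.7 TPM at Year 2. Every treated rat was above every control rat of any time point. The log2 fold change was 0.81 ± 0.11 (SE, FDR = 0.000496, edgeR) at Year 0.5, 0.95 ± 0.09 (FDR = 6.18e-05) at Year 1, and 1.06 ± 0.12 (FDR = 0.000109) at Year 2, or 1.75-, 1.93-, and 2.08-fold.

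*Il34* (chr19:40855433-40904121, plus strand) encodes the second ligand of CSF-1R, known for its part in Langerhans cells and microglia. It was present at 26.2, 31.7, and 31.4 TPM in the control rats of Year 0.5, 28.9, 32.7, and 30.9 TPM at Year 1, and 31.6, 27.0, and 25.7 TPM at Year 2. The treated rats had 21.7, 22.6, and 29.0 TPM, 19.7, 23.1, and 23.2 TPM, and 23.8, 23.1, and 23.6 TPM, respectively. The groups overlapped at Year 0.5, and at Years 1 and 2 all treated rats were below all controls in TPM. In the TMM-normalised test the log2 fold changes were -0.14 (95% interval -0.43 to 0.14, FDR = 0.394), -0.25 (-0.49 to -0.01, FDR = 0.0919), and -0.05 (-0.31 to 0.21, FDR = 0.755). The scaling mattered at Year 1: scaled by library size only, the log2 fold change was -0.38 and passed the threshold (FDR = 0.0158), as did limma on log2(TPM + 1) with -0.47 (FDR = 0.00574), and leaving out MWCNT-treated rat 2 gave -0.33 (FDR = 0.0431). Scaling by library size only also moved the median of all tested genes to -0.12, -0.13, and -0.18 at Years 0.5, 1, and 2, and the TPM scale moved it to -0.15, -0.21, and -0.20.

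Because *Csf1* and *Il34* share a receptor, their balance was compared within each rat, where library scaling has no effect. The log2 ratio of *Csf1* to *Il34* in TPM was 0.49 ± 0.12 (SD, n = 3) in the controls of Year 0.5, 0.43 ± 0.10 at Year 1, and 0.79 ± 0.19 at Year 2. In the treated rats it was 1.44 ± 0.40, 1.62 ± 0.27, and 1.88 ± 0.23. The treated rats were above the controls at each time point. Over the 3 time points the ratio was 2.11-fold higher in the treated rats (95% interval 1.80 to 2.47), with p = 0.00025 in a two-sided exact permutation test within time points, the smallest this test can give, and 0.000417 after adjustment over the 5 ratios tested.

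*Csf2* (chr10:39602089-39604070, minus strand), the GM-CSF gene, was the lowest of the genes that could be tested, with 10 to 40 reads per rat. The controls had 10.6, 11.1, and 5.21 TPM at Year 0.5, 4.26, 5.17, and 4.87 TPM at Year 1, and 8.31, 9.34, and 7.97 TPM at Year 2. The treated rats had 11.4, 7.22, and 8.93 TPM at Year 0.5, 8.80, 6.40, and 6.30 TPM at Year 1, and 2.87, 5.54, and 3.81 TPM at Year 2. The groups overlapped at Year 0.5, the treated rats were all higher at Year 1, and they were all lower at Year 2. The log2 fold change was 0.16 (95% interval -0.62 to 0.94, FDR = 0.737), 0.82 (0.16 to 1.47, FDR = 0.0503), and -0.84 (-1.61 to -0.08, FDR = 0.0656) in turn, so that none passed. Values at Years 1 and 2 lay close to the threshold: one model of all 18 rats gave FDR = 0.0485 and 0.0373, limma on log2(TPM + 1) gave 0.0286 and 0.00405, and at Year 2 library size only gave -1.01 (FDR = 0.0335) and leaving out MWCNT-treated rat 2 gave -1.12 (FDR = 0.0479). The difference between the effects of Years 2 and 1 was -1.65 ± 0.45 on the log2 scale (SE, FDR = 0.0889 over all genes in edgeR). The control mean was 4.76 ± 0.47 TPM (SD, n = 3) at Year 1, below the 8.98 ± 3.27 and 8.54 ± 0.72 TPM of Years 0.5 and 2, though neither step passed the test (FDR = 0.587 and 0.0990). Activated T cells and alveolar type 2 cells are known to make GM-CSF. T cell markers fell in 4 of 6, 1 of 6, and 6 of 6 genes, against 18.6%, 19.6%, and 24.0% of all tested genes, so Year 1 was near that share. Their summed levels at Year 2 were 163 to 169 TPM in the controls and 50.7 to 69.4 TPM in the treated rats. Alveolar type 2 markers rose in 7, 6, and 7 of 7 genes, against 20.2%, 21.6%, and 25.2% of all tested genes. Neither list's part in the *Csf2* values was tested.

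*Csf3* (chr10:86616785-86619157, plus strand) had no read in 11 of the 18 rats. The other 7 rats had at most 6 reads each, 4 reads in all over the 9 controls and 14 over the 9 treated rats, so that the gene was too low to be tested and no fold is given. A difference was not detectable at this depth. Its receptor gene *Csf3r*, carried mainly by neutrophils, had log2 fold changes of -0.06, -0.14, and -0.17 (FDR = 0.738, 0.458, and 0.461). Among 6 neutrophil markers tested, 2, 3, and 3 rose and 1 fell at Year 2. These counts stand beside 20.2%, 21.6%, and 25.2% of all tested genes that rose and 24.0% that fell at Year 2. The summed level of the 7 listed markers was 206 to 378 TPM in the controls and 364 to 1145 TPM in the treated rats. Named after their values were seen, *S100a9* rose by 1.39, 2.36, and 2.21 on the log2 scale, while *Cxcr2* and *Mmp8* did not pass at any time point.

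**Figure D2:**
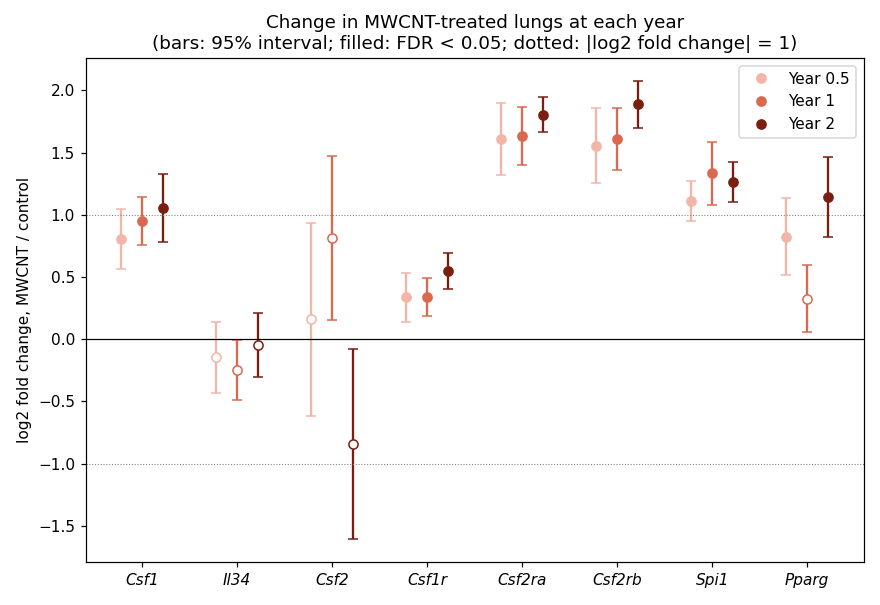
Log2 fold change (MWCNT-treated against time-matched control) of the 8 genes tested at Years 0.5, 1, and 2, with 95% intervals from edgeR (3 rats against 3). *Csf2ra* and *Csf2rb* lay between 1.56 and 1.89, *Csf1r* between 0.34 and 0.55, and the intervals of *Csf2* were the widest.

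The GM-CSF receptor chains were the most changed of the group. *Csf2ra* lies on the plus strand in Rnor_6.0, the build of the counts, but its promoter printed above is on the minus strand in GRCr8. Whether the gene models of both builds match was not checked. *Csf2ra* (chr14:1462358-1467264, plus strand), the alpha chain, measured 55.1, 74.8, and 79.6 TPM in the controls of Year 0.5, 85.0, 70.0, and 81.5 TPM at Year 1, and 80.3, 83.0, and 86.6 TPM at Year 2. The treated rats measured 184.5, 205.7, and 186.8 TPM, 208.5, 215.3, and 199.3 TPM, and 249.2, 253.0, and 248.7 TPM. The lowest treated rat had more than 2 times the TPM of the highest control. The log2 fold change was 1.61 ± 0.13 (SE, FDR = 3.73e-05), 1.64 ± 0.10 (FDR = 8.76e-06), and 1.80 ± 0.06 (FDR = 2.37e-07), which is 3.05-, 3.11-, and 3.49-fold.

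*Csf2rb* (chr7:119554354-119568776, plus strand), the beta chain that GM-CSF shares with IL-3 and IL-5, was 13.7, 18.8, and 19.4 TPM, 19.4, 17.5, and 19.3 TPM, and 16.5, 19.2, and 21.0 TPM in the controls of the 3 time points. In the treated rats it was 47.6, 48.6, and 41.3 TPM, 52.1, 50.8, and 42.6 TPM, and 58.5, 57.7, and 63.8 TPM. Again no treated rat came near the controls, and the log2 fold change was 1.56 ± 0.13 (FDR = 5.71e-05), 1.61 ± 0.11 (FDR = 1.40e-05), and 1.89 ± 0.08 (FDR = 6.27e-07), or 2.94-, 3.05-, and 3.70-fold. The other ligands of the beta chain were hardly present: *Il3* and *Il5* had 0 reads in all 18 rats. The alpha chain for IL-3, *Il3ra*, did not pass the test, with log2 fold changes of -0.13, 0.08, and -0.10 (FDR = 0.456, 0.568, and 0.404).

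No difference in the proportion of the chains was detected. The log2 ratio of *Csf2rb* to *Csf2ra* was -2.01 ± 0.02, -2.06 ± 0.07, and -2.14 ± 0.12 (SD, n = 3) in the controls and -2.07 ± 0.11, -2.10 ± 0.11, and -2.06 ± 0.09 in the treated rats, and the groups overlapped at all 3 time points. The treated-to-control difference was 0.996-fold with a 95% interval of 0.934 to 1.06 (p = 0.887, two-sided exact permutation test). Of 14842 other genes, *Csf2rb* had the profile over the 18 rats closest to that of *Csf2ra*, and the reverse held too, with a root mean square difference of 0.0865 log2 units between the profiles after each gene's mean was removed. The median over all genes was 0.899. Next after the partner chain came *RT1-Bb*, an MHC class II gene (0.101), and *Ncf1*, a subunit of the phagocyte NADPH oxidase (0.111), for *Csf2ra*, and *Ncf1* (0.114) and the complement receptor gene *C5ar1* (0.116) for *Csf2rb*. Likeness over these rats carries the treatment difference, so it describes the profiles and is not a test.

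**Figure D3:**
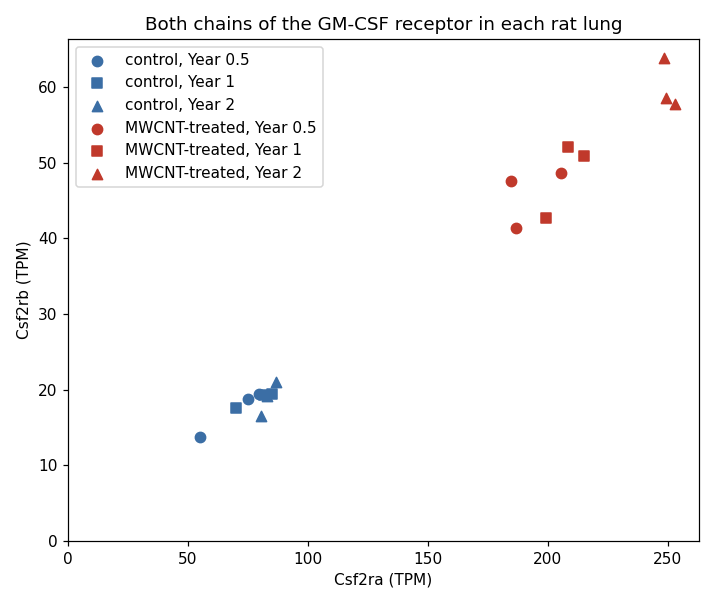
*Csf2rb* against *Csf2ra* in TPM, 1 point per rat, with colour for treatment and shape for time point. The 9 control rats lay between 55.1 and 86.6 TPM of *Csf2ra* and the 9 treated rats between 184.5 and 253.0 TPM, along the same proportion of the chains.

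*Csf1r* (chr18:56414488-56458300, plus strand), the receptor kinase for CSF-1 and IL-34, was the most abundant of the 9 RNAs per length in the controls and moved little. Controls had 133.1, 156.2, and 136.3 TPM at Year 0.5, 148.2, 149.5, and 151.9 TPM at Year 1, and 139.8, 147.0, and 148.0 TPM at Year 2. Treated rats had 172.4, 164.9, and 148.8 TPM, 163.9, 156.1, and 163.2 TPM, and 174.3, 188.1, and 184.1 TPM. The groups overlapped at Year 0.5 and were separate at Years 1 and 2. The log2 fold change was 0.34 ± 0.09 (FDR = 0.0154), 0.34 ± 0.07 (FDR = 0.00373), and 0.55 ± 0.06 (FDR = 0.000128). The call at Year 0.5 was lost without control rat 1, MWCNT-treated rat 1, or MWCNT-treated rat 2 (log2 fold changes 0.29, 0.29, and 0.32, the highest FDR being 0.0666), with library size only (0.23, FDR = 0.0557), and with limma on log2(TPM + 1) (0.19, FDR = 0.0896), and with limma the call at Year 1 was lost too (0.10, FDR = 0.153). In the treated rats *Csf1r* ranked below *Csf2ra*, the reverse of the order in the controls.

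*Csf1r* is carried by macrophages and monocytes, so it was set beside 9 pan-macrophage markers (*Cd68*, *Cd14*, *Adgre1*, *C1qa*, *C1qb*, *C1qc*, *Lgmn*, *Aif1*, and *Ms4a7*). All 9 rose at each time point, against 20.2%, 21.6%, and 25.2% of all tested genes. Their summed level was 529 to 687 TPM in the controls and 1713 to 3219 TPM in the treated rats. They rose unequally, by 0.71 to 2.44, 0.74 to 2.50, and 1.18 to 3.03 on the log2 scale, *Adgre1* least each time. The size of a ratio to them therefore depends on the markers chosen. Each marker rose more than *Csf1r* at each time point, and the list was chosen with earlier results of these data known. The direction of the *Csf1r* ratio follows from that, so its p-value adds no separate support. In bulk lung RNA, fewer cells of a type and less RNA per cell cannot be told apart, and neither can more cells and more RNA per cell. Relative to the geometric mean of these markers, *Csf1r* was 2.71-fold lower in the treated rats, a log2 difference of -1.44 (95% interval -1.61 to -1.26, exact permutation p = 0.00025, adjusted p = 0.000417). The difference was -1.30, -1.35, and -1.66 at Years 0.5, 1, and 2, and the treated rats were below the controls each time, although 3 rats against 3 cannot give an exact p under 0.1 within a time point.

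*Spi1* (chr3:79918969-79938301, plus strand) encodes PU.1. Its level was 54.0, 61.7, and 57.8 TPM in the controls of Year 0.5, 66.3, 54.9, and 53.2 TPM at Year 1, and 73.8, 74.1, and 68.2 TPM at Year 2. In the treated rats it was 112.5, 116.1, and 110.4 TPM, 117.7, 129.6, and 124.8 TPM, and 144.2, 153.0, and 149.6 TPM. The groups were far apart, and the treated rats varied little among themselves (SD 2.86 to 5.99 TPM). The log2 fold change was 1.11 ± 0.07 (FDR = 1.35e-05), 1.33 ± 0.11 (FDR = 4.38e-05), and 1.26 ± 0.07 (FDR = 2.08e-06), or 2.16-, 2.52-, and 2.40-fold. Relative to the geometric mean of the pan-macrophage markers, *Spi1* was 1.52-fold lower in the treated rats (log2 difference -0.61, exact permutation p = 0.00025, adjusted p = 0.000417), by -0.52, -0.36, and -0.94 at the 3 time points. This too depends on the markers chosen, as *Adgre1* rose less than *Spi1* at each time point, and the p-value does not cover that choice.

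*Pparg* (chr4:147274107-147399380, plus strand), the nuclear receptor gene of the alveolar macrophage lipid programme, behaved unevenly. It measured 11.3, 10.6, and 13.7 TPM in the controls of Year 0.5, 12.97, 16.4, and 16.6 TPM at Year 1, and 8.88, 7.82, and 11.4 TPM at Year 2. The treated rats measured 16.2, 19.4, and 21.5 TPM, 14.9, 16.5, and 17.4 TPM, and 18.3, 17.5, and 17.7 TPM. The treated rats were higher at Years 0.5 and 2 and overlapped the controls at Year 1. The log2 fold change was 0.82 ± 0.14 (FDR = 0.00162) at Year 0.5, 0.33 ± 0.12 (FDR = 0.0565) at Year 1, and 1.15 ± 0.14 (FDR = 0.000178) at Year 2. At Year 1 the call was made without MWCNT-treated rat 1 (0.40, FDR = 0.0379). The controls differed with time while the treated rats stayed between 14.9 and 21.5 TPM: from Year 1 to Year 2 the control level fell by 0.68 on the log2 scale (FDR = 0.0129), a call that was lost without control rat 2 or 3 of Year 1 or control rat 1 or 2 of Year 2 (FDR up to 0.0768). The effect at Year 2 exceeded that at Year 1 by 0.83 ± 0.20 log2 units (SE, FDR = 0.0605 in edgeR), with FDR = 0.00678 in DESeq2.

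*Pparg* is also a gene of adipocytes. The adipocyte markers other than *Fabp4* summed to 0.537 to 4.51 TPM over all rats, and *Fabp4* itself, which alveolar macrophages share with adipocytes, is described below. Within each rat, the ratio of *Pparg* to *Spi1* was 0.722-fold in the treated rats relative to the controls (95% interval 0.576 to 0.906, exact permutation p = 0.0085, adjusted p = 0.0106). The difference was uneven, being -1.0 on the log2 scale at Year 1, where the groups did not overlap, and -0.29 and -0.11 at Years 0.5 and 2, where they did.

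**Figure D4:**
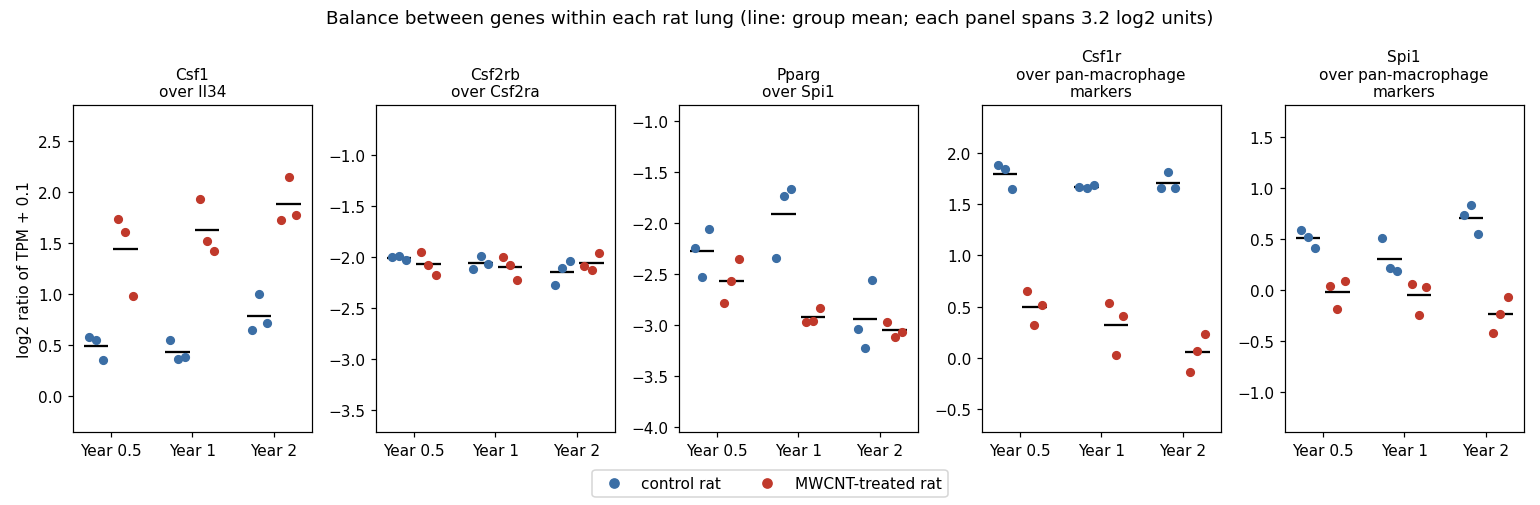
Log2 ratios within each rat of *Csf1* to *Il34*, *Csf2rb* to *Csf2ra*, *Pparg* to *Spi1*, and *Csf1r* and *Spi1* to the geometric mean of 9 pan-macrophage markers, by time point, in panels that span the same number of log2 units. Against the controls of the same time point, the first ratio was higher in all treated rats and the last pair was lower in all treated rats. The second ratio overlapped at every time point.

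Time was examined in one model of all 18 rats with 14843 genes. In the treated rats, 6 of the 8 genes differed between Years 2 and 0.5 (13.5% of all genes tested). *Csf1* rose by 0.48 on the log2 scale (FDR = 0.0114), *Csf2ra* by 0.46 (FDR = 0.00783), *Csf2rb* by 0.47 (FDR = 0.0128), *Spi1* by 0.48 (FDR = 0.00177), and *Csf1r* by 0.25 (FDR = 0.0205), and *Csf2* fell by 1.07 (FDR = 0.0335). Without MWCNT-treated rat 3 of Year 0.5, 2 of the 6 calls were left, those of *Csf2ra* and *Spi1*. Without MWCNT-treated rat 2 of Year 2 the change of *Csf1* was 0.36 (FDR = 0.0814). The call of *Csf2* was also lost without MWCNT-treated rat 1 of Year 0.5 or rat 1 or 3 of Year 2 (-0.89, -0.89, and -1.01), and that of *Csf1r* without rat 2 or 3 of Year 2 (0.24 and 0.25). In the controls over the same interval only *Spi1* differed, by 0.32 (FDR = 0.0430, 6.65% of all genes), and this call was lost when any 1 of 10 of the 18 rats was left out, with log2 changes of 0.28 to 0.32 and an FDR of at most 0.172. Those were control rats 1 and 3 of Year 0.5 and 1 and 2 of Year 2, and MWCNT-treated rats 1 and 2 of Year 0.5, 3 of Year 1, and 1, 2, and 3 of Year 2. Between Years 1 and 2 the controls differed in *Spi1* (0.34, FDR = 0.0337) and *Pparg* (7.93% of all genes), and both calls were lost without any 1 of the 4 control rats named above for *Pparg*. For the treated rats edgeR made 0 calls between Years 1 and 2 (5.94% of all genes were called). At an unadjusted p under 0.05 there were 6 genes (20.3% of all genes), and DESeq2 made 2 calls (8.09%). Between Years 0.5 and 1 edgeR made 0 calls in the controls and 0 in the treated rats (0.00% and 0.101% of all genes), as did DESeq2 (0.142% and 0.472%), and at an unadjusted p under 0.05 there were 2 genes and 1 gene (7.01% and 9.24%).

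Whether the treatment effect itself differed between time points was tested as an interaction. edgeR called 0 of the 8 genes in any of the 3 contrasts, in which 0.00% (Year 1 against 0.5), 1.31% (Year 2 against 0.5), and 0.478% (Year 2 against 1) of all genes were called. At an unadjusted p under 0.05 there were 1, 2, and 3 genes (8.49%, 13.8%, and 16.5% of all genes), and DESeq2 called 0, 0, and 1 (0.0438%, 3.27%, and 4.55%), the last being *Pparg*. DESeq2 gave *Csf2* no adjusted p for Year 2 against 1, so it could not be called there. The 6 genes called at both Years 0.5 and 2 had a larger fold change at Year 2. The share of all genes that did so was not counted. Higher DEGs made up 6.07% of all tested genes at Year 0.5 and 8.17% at Year 2. The interaction estimate was 0.20 for *Csf2ra* (95% interval -0.12 to 0.52), 0.34 for *Csf2rb* (-0.02 to 0.70), 0.26 for *Csf1* (-0.09 to 0.61), 0.16 for *Spi1* (-0.11 to 0.42), and 0.33 for *Pparg* (-0.09 to 0.75). For *Csf1r* it was 0.22 with an interval of 0.01 to 0.42, which did not hold over all genes (FDR = 0.328), so that none of the 6 differences passed the test.

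Genes that act with these ligands and receptors were examined as lists. Of 6 related ligands and receptors tested, 2 rose at Year 0.5, 2 rose and 1 fell at Year 1, and 3 rose and 1 fell at Year 2, and the list median was 0.21, 0.03, and 0.19. The shares of all tested genes that rose or fell, given above, are of similar size at Years 0.5 and 1, so the list was close to the background. *Sdc1*, encoding syndecan-1, which IL-34 can also bind, rose by 0.62, 0.65, and 0.72 on the log2 scale, and *Flt3*, the receptor kinase of dendritic cell progenitors, by 0.76, 0.45, and 0.48. Named after its values were seen, *Flt3lg*, the ligand of Flt3, was the gene that fell, by 0.38 at Year 1 and 0.55 at Year 2 (FDR = 0.0409 and 0.0168).

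Of 22 signalling genes downstream of the receptors, 12, 12, and 13 rose and 0, 2, and 0 fell, with medians of 0.23, 0.27, and 0.31, well under those of the receptor chains. Over all tested genes, 20.2%, 21.6%, and 25.2% rose and 18.6%, 19.6%, and 24.0% fell. *Tyrobp*, the adaptor DAP12 that cooperates with CSF-1R, rose by 1.01, 1.20, and 0.96, and *Shc1*, an adaptor recruited to the beta chain, by 0.65, 0.67, and 0.72. The kinase that transmits the GM-CSF signal changed little: *Jak2* had log2 fold changes of 0.24, 0.21, and 0.19 (FDR = 0.0120, 0.0292, and 0.0470). *Stat5a*, which JAK2 activates, had 0.21, 0.20, and 0.42 (FDR = 0.0465, 0.0775, and 0.00196), and its neighbour *Stat5b* had -0.12, -0.18, and -0.12 and never passed. RNA levels do not report the phosphorylation through which these proteins act.

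The alveolar macrophage and PPARγ programme moved largely one way. Of its 12 genes listed (*Cd36* and *Car4* were not analysed here), 11 rose and none fell at each time point, and the list median was 1.22, 0.88, and 1.55. The rising shares of all tested genes were 20.2%, 21.6%, and 25.2%. *Fabp4*, a fatty acid binding protein and a well-known PPARγ target, was 36.6 ± 5.96, 29.9 ± 2.38, and 21.9 ± 6.32 TPM (SD, n = 3) in the controls and 278 ± 37.8, 373 ± 79.6, and 678 ± 33.6 TPM in the treated rats, a log2 fold change of 3.08, 3.88, and 5.18. *Bhlhe41*, a transcription factor of alveolar macrophages, rose by 2.11, 2.08, and 2.68. *Marco*, a scavenger receptor that binds particles, was at 0 to 7 reads per control rat and 26 to 130 reads per treated rat, and its TPM was 0 to 0.585 in the controls and 2.01 to 10.02 in the treated rats. *Nr1h3*, the LXRα gene, was the gene that did not pass (-0.09, 0.18, and -0.01), and it is named after its values were seen. The pan-macrophage markers (medians 1.75, 1.6, and 2.44) and alveolar type 2 markers rose alongside this list, and their part in it was not tested.

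Of 15 other myeloid transcription factors, 10, 9, and 12 rose and 2 fell at each time point, with medians of 0.68, 0.63, and 0.80. Among all tested genes 20.2%, 21.6%, and 25.2% rose and 18.6%, 19.6%, and 24.0% fell. The list's falling share was therefore below the background. *Egr2* rose by 0.95, 1.97, and 2.18, and *Mitf*, of the family that governs lysosomal genes, by 1.36, 1.0, and 1.73. *Klf4* and *Bach2* were the genes that fell, by 0.96 and 0.79 at Year 0.5, by 0.80 and 0.88 at Year 1, and by 1.30 and 1.26 at Year 2, and both are named after their values were seen. *Klf4* is also expressed in endothelium, whose markers fell in 5, 4, and 4 of 5 genes, and *Bach2* in B and T cells, with B cell markers lower in 5 of 5, 1 of 4, and 2 of 4 genes. At Year 1 the B cell count was near the share of all tested genes that fell. The part of those cells was not tested.

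Of 10 genes known as PU.1 targets, 10, 9, and 10 rose, with medians of 1.18, 1.22, and 1.51. By comparison, 20.2%, 21.6%, and 25.2% of all tested genes rose. Single genes ranged widely, from 0.36 to 2.36, 0.15 to 2.30, and 0.28 to 2.72, while *Spi1* itself changed by 1.11, 1.33, and 1.26. *Itgam*, the CD11b integrin chain, rose by 2.36, 2.30, and 2.46, *Cybb*, the catalytic subunit of the phagocyte oxidase, by 1.98, 1.82, and 2.72, and *Ncf1* by 1.49, 1.77, and 1.87. These genes are expressed by macrophages, so the rise of the pan-macrophage markers accompanied them, and the part of cell number was not tested.

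The profiles closest to the remaining genes over the 18 rats were as follows, and the single closest gene was further away than the partner chain was for *Csf2ra* and *Csf2rb*, except for *Csf1r*. For *Csf1* they were *Syk*, *Tgfb1*, and *Myo1f* (0.111, 0.118, and 0.128 log2 units), and for *Spi1* they were *Fxyd5*, *Cotl1*, and *Fermt3* (0.102, 0.113, and 0.113). *Csf1r* was nearest to *Hsd17b11*, *Abhd4*, and *Esyt1* (0.0712, 0.0724, and 0.0730), and *Il34*, which varied little, to *Tcof1*, *Bag6*, and *Nudt3* (0.104, 0.117, and 0.118). Such distances depend on how much a gene varies. The median over all genes was 0.342 for *Csf1r* and 0.297 for *Il34*, against 0.899 for *Csf2ra*. *Pparg* was nearest to *Dab2*, *Pgap1*, and *Sec24d* (0.157, 0.159, and 0.164). *Csf2* had the most distant neighbours, *Trib3*, *Abcb9*, and *Ppp1r15a* (0.295, 0.323, and 0.372), at 10 to 40 reads per rat.

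Markers of other cell types changed along with these genes. The alveolar type 2 markers, which define lung tissue, were abundant in every rat and summed to 27783 to 36799 TPM in the controls and 51421 to 61133 TPM in the treated rats. For the counts that follow, 20.2%, 21.6%, and 25.2% of all tested genes rose and 18.6%, 19.6%, and 24.0% fell. Cell division markers rose in 8 of 8 genes and monocyte markers in 2 of 3 at every time point. Mast cell markers rose in 2 of 4, 5 of 5, and 5 of 5 genes, reaching 220 to 281 TPM in sum at Year 2 against 2.22 to 6.78 TPM in all controls. Alveolar type 1 markers fell in 5, 4, and 5 of 5 genes and fibroblast markers in 3 of 5 at each time point, while the fibroblast marker *Col1a1*, a collagen gene named after its values were seen, rose at Years 0.5 and 2 (0.49 and 1.22 on the log2 scale, FDR = 0.0439 and 1.51e-05). Heart muscle markers summed to between 72.9 and 654 TPM in the controls and between 15.6 and 202 TPM in the treated rats. The part of these cells in the levels of the 9 genes was not tested.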

How the data were processed

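Total RNA from the accessory lobe of 18 rats was sequenced. The authors mapped the reads in CLC Genomics Workbench, to Rnor_6.0 (rn6) per the submitters' processing notes, and deposited whole-number counts of reads per gene without normalization. The deposited TPM came from the authors' software and are scaled to the same sum in each rat. How multiply mapping reads were treated is not given in the sources used here. The deposited RPKM and TMM-adjusted CPM values and the authors' comparison columns (fold changes, p-values, and FDR) were not used.

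Counts of the 6 rats of a time point were filtered with filterByExpr (minimum count 10, minimum total 15), scaled by TMM, and put through edgeR's quasi-likelihood test (version 4.0.16, R 4.3.3) over all genes, without covariates, after a check on simulated data. FDR is Benjamini-Hochberg adjusted, and ± after a fold change is the SE. Time and interaction were tested in one model of all 18 rats. Ratios used log2(TPM + 0.1) and a two-sided exact permutation test within time points (8000 arrangements, Python 3.11.15). Likeness of profiles used log2 CPM with a prior count of 2.

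Alternatives were DESeq2 size factors, library size only, upper quartile, no filter, DESeq2 1.42.0, limma 3.58.1 on log2(TPM + 1), one model of 18 rats, the replicate number as a block, each rat left out, and for ratios a pseudocount of 1 or CPM. The 9 genes and all lists were chosen with earlier results of these data known. All 9 genes were named. From each pathway list, up to 3 genes with the largest mean change among those called in 1 direction at all 3 time points were named, with the partner genes *Csf3r*, *Il3ra*, *Tyrobp*, *Jak2*, *Stat5a*, and *Stat5b*, and for each of the 9 the 3 genes with the closest profile. Some genes that this rule names are not reported here.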

Additional observations from a re-analysis of the deposited data

Results flagged for a closer look

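*Csf2*, the GM-CSF gene, is listed because all 3 MWCNT-treated rats moved one way at Year 1 and the opposite way at Year 2. The treated mean was 1.504 times the control mean in TPM at Year 1 and 0.477 times at Year 2. The interaction, -1.65 ± 0.45 on the log2 scale (SE), had FDR = 0.0889 in the edgeR model of 18 rats and did not pass. The counts were low, 13 to 32 reads per rat at Year 1 and 10 to 31 at Year 2. Groups of 3 rats were too small for a search for outlying samples.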

How the results depend on the processing

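With the alternatives other than leaving out a rat, 113 of 117 counts and ratios stayed within 1.5 times of the main count or on their side of the threshold. Within that tolerance, the called genes moved from 6 to 5 at Year 0.5 (library size only and limma), increased to 6 from 5 at Year 1, and reached 7 rather than 6 at Year 2 (for both, library size only, limma, and the model of 18 rats, and at Year 1 also the replicate block), and the DEGs numbered 2 rather than 3 at Year 0.5 (limma) and 4 rather than 5 at Year 2 (library size only). Beyond it, limma on log2(TPM + 1) gave 3 DEGs at Year 2 instead of 5, DESeq2 gave 1 interaction call between Years 2 and 1 instead of 0, and the treated change from Year 1 to Year 2 had 2 calls in DESeq2 and 1 with the replicate block instead of 0. The cause was not tested. Leaving out each rat gave 5 to 6, 5 to 6, and 6 to 7 called genes and 3, 3 to 4, and 4 to 5 DEGs at the 3 time points, 0 to 1 calls for the control change from Year 0.5 to Year 2, 2 to 6 for the treated change, 0 to 1 for the interaction between Years 2 and 1, 0 to 2 for the control change from Year 1 to Year 2, and 0 to 1 for the treated change. It moved the log2 ratio of *Csf2rb* to *Csf2ra* between -0.028 and 0.014 and turned the direction of *Csf2* at Year 0.5 (range -0.12 to 0.34, lower than 0 without control rat 3 or MWCNT-treated rat 1) and of *Il34* at Year 2 (range -0.12 to 0.077, above 0 without control rat 1), none of which was called. Of single genes, 245 of 257 values kept their call under the other alternatives, 9 gained it, and 3 lost it. With each rat left out, 302 single-gene values kept their call, 6 gained it, 31 lost it, and 3 changed direction.

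The replicate numbers do not pair the rats: deviations from the group means correlated at 0.007 on average over 9 same-numbered pairs (-0.147 to 0.107) and at -0.003 over 18 others, across genes, which are not independent. As a block, the number made *Pparg* pass at Year 1 (0.33, FDR = 0.0368). In the ratios it gave the same values with adjusted p = 0.00651 for *Csf1* to *Il34* and for both ratios to the pan-macrophage markers, 0.0342 for *Pparg* to *Spi1*, and 0.887 for the receptor chains. Depth limits *Csf2* and *Csf3*, as the former had at most 40 reads per rat and the latter at most 6.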
